A study of Mus musculus with 8 samples.

Results

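The antioxidant genes driven by the transcription factor NRF2, together with the genes that break down heme and move or store iron, were followed through the cells of the mouse left ventricle after ischemia and reperfusion (IR). The set held 10 genes of the 27998 in the deposited matrices: Hmox1, Slc7a11, Srxn1, Txnrd1, Gclm, Nqo1, Fth1, Ftl1, Slc40a1 and Nfe2l2. They were taken by symbol and all 10 were found. They had been picked because of their pattern in these same matrices, so their levels and ratios are given as a description with no test.

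Single-cell RNA was measured by droplet sequencing of 3′ ends with unique molecular identifiers (UMIs), in left ventricles of male C57BL/6 mice aged 10 weeks or more. In the IR group the left anterior descending coronary artery was tied for 30 min and then reopened, and hearts were taken 6 h after surgery. In the sham group, which is read here as the matrix labelled 0 h, the same surgery was done without tying the artery, and both groups shared strain, sex and age. The labels list 4 samples at 0 h and 4 at 6 h, each pooled from 3 hearts, but each group was given as 1 matrix whose cell barcodes do not show the sample, so each group counts as 1 library. No difference between the libraries has a replicate check, and the 95% intervals below cover counting error only.

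NRF2, encoded by Nfe2l2, is held by KEAP1 and degraded until oxidants or electrophiles release it, after which it pairs with small MAF proteins at antioxidant response elements. BACH1 occupies the same elements as a repressor and lets go when it binds heme. Heme oxygenase 1 (Hmox1) splits heme into biliverdin, carbon monoxide and iron, ferritin heavy and light chains (Fth1 and Ftl1) store that iron, and ferroportin (Slc40a1) exports it, a route that macrophages use to recycle iron from red cells. Iron regulatory proteins hold back translation of ferritin and ferroportin mRNAs when iron is low, so a UMI count of these genes measures mRNA and not protein.

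The cells were filtered by the study's stated limits (200 to 2500 genes and at most 30% mitochondrial UMIs, as its methods state them), which kept 9777 of 11620 sham barcodes and 4880 of 8539 IR barcodes, with medians of 4255 and 3951 UMIs per cell. The study counted more cells than this filter leaves, most of all in IR, so these are not the same cells. Cells were placed in classes by UMIs of a fixed marker list, and the class names are short for "-like": macrophage/monocyte cells (3311 sham and 698 IR), neutrophils (262 and 2321), B cells (1127 and 722), T cells (368 and 246), NK cells (224 and 69), fibroblasts (2945 and 212), endothelial cells (232 and 62) and mural cells (775 and 127). Between 3 and 7 of the 10 leading genes of each class were its own markers, and markers of another class were absent among them except for 1 (Pf4) in sham macrophage/monocyte cells. The same markers placed the cells, so this describes the classes and does not test them. The libraries shared 30 barcode sequences, and no doublets were removed beyond the limit on genes per cell. That limit took more IR than sham cells: without it the macrophage/monocyte class held 3701 sham and 1959 IR cells and the fibroblast class 3531 and 1663. Values without the limit are given for some of the results that moved, and not for all. Levels are UMIs of a gene per 1000000 UMIs of the class (CPM). They are compared between cells and not between genes.

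On GRCm38, Hmox1 lies at chr8:75093621-75100589 and Fth1 at chr19:9980598-9985098, both on the plus strand, and Slc40a1 at chr1:45908068-45926523 and Slc7a11 at chr3:49892526-50443614, both on the minus strand. Slc7a11, Txnrd1, Gclm, Ftl1 and Nfe2l2 overlap other annotated genes, so UMIs from the shared stretches may belong to either, while Hmox1, Srxn1, Nqo1, Fth1 and Slc40a1 overlap none.

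The sequences below, from Srxn1, Slc7a11, Gclm and Nfe2l2, show where letters of the antioxidant response element or a related element sit upstream. They come from RefSeq start sites on GRCm38.p6, run 5′ to 3′ on the strand of the gene, and carry in capitals the letters TGACNNNGC, TGAGNNNGC (both forms of an antioxidant response element core), TGACTCA (an AP-1 element) or TGATGCAA (an element bound by ATF4 with C/EBP proteins) on either strand. Srxn1, bases 170 to 31 before its start, chr2:152105354-152105493, plus strand:
Srxn1: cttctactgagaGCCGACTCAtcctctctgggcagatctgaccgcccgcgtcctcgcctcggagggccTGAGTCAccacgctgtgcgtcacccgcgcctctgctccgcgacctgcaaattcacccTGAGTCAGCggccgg
Slc7a11, bases 110 to 31 before its start, chr3:50443644-50443723, minus strand:
Slc7a11: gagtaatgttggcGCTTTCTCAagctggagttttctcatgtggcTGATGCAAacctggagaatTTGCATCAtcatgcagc
Gclm, bases 150 to 101 before its start, chr3:122245407-122245456, plus strand:
Gclm: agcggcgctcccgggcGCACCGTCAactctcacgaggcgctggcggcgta
Nfe2l2 itself, bases 250 to 201 before its start, chr2:75704864-75704913, minus strand:
Nfe2l2: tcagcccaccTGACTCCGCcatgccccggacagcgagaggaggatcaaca

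Windows from 250 bases before to 50 after a start were searched, and 8 of the 10 members had one or more (11 windows). Over all 32851 such mouse windows, 12.4% held TGACNNNGC, 17.6% held TGAGNNNGC, 5.20% held TGACTCA and 0.895% held TGATGCAA. The Srxn1 window held TGAGNNNGC at 158 and 45 bases before the start and TGACTCA at 102 and 45, where the match at 45 is shared by both motifs, and it also held TGACNNNGC at 29 bases after the start. The Slc7a11 window held TGAGNNNGC at 97 bases before the start and TGATGCAA at 66 and 47, on opposite strands. Gclm held TGACNNNGC at 134 bases before its start, Nfe2l2 at 240, and Txnrd1 at 92 before 1 of its 3 starts. The windows of Nqo1, Fth1 and Ftl1 and the other Txnrd1 starts held none of these letters. A match is a description of the letters only.

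The 3 iron genes carry an iron-responsive element in their 5′ untranslated regions, the hairpin that iron regulatory proteins bind, and it is shown because it ties these mRNAs to iron beside transcription. The 30 bases below are annotated as 5′ untranslated region in GENCODE on GRCm38, with the 6-base loop in capitals between arms that form 5 base pairs. Fth1 lies at chr19:9982732-9982761 on the plus strand, Ftl1 at chr7:45459778-45459807 and Slc40a1 at chr1:45925464-45925493, both on the minus strand:
Fth1: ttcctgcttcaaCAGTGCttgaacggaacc
Ftl1: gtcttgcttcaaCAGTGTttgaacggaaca
Slc40a1: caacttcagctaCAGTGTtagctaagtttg
The Fth1 and Ftl1 elements were the same at 26 of 30 bases, and each matched that of Slc40a1 at 13 of 30.

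Hmox1 mRNA was highest in macrophage/monocyte cells. Hmox1 in these cells stood at 278 CPM in sham (95% interval 270.0 to 286; 4420 UMIs) and 1183 CPM in IR (1150.0 to 1216; 4969 UMIs), a 4.25-fold higher level (log2 ratio 2.09, 2.03 to 2.15). In both libraries this was the highest level among the 8 classes. Fibroblasts held 86.3 CPM in sham and 184 CPM in IR, 2.13-fold higher, while neutrophils held 102 and 141 CPM. In sham the intervals of neutrophils and fibroblasts overlapped, and in IR fibroblasts were above neutrophils. The lymphoid and vascular classes were low: in IR, mural, endothelial, B, T and NK cells lay between 11.5 and 35.5 CPM, and each overlapped its neighbour in that order, though the mural interval (20.7 to 56.9) lay above that of T cells (7.36 to 20.2).

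**Figure D1:**
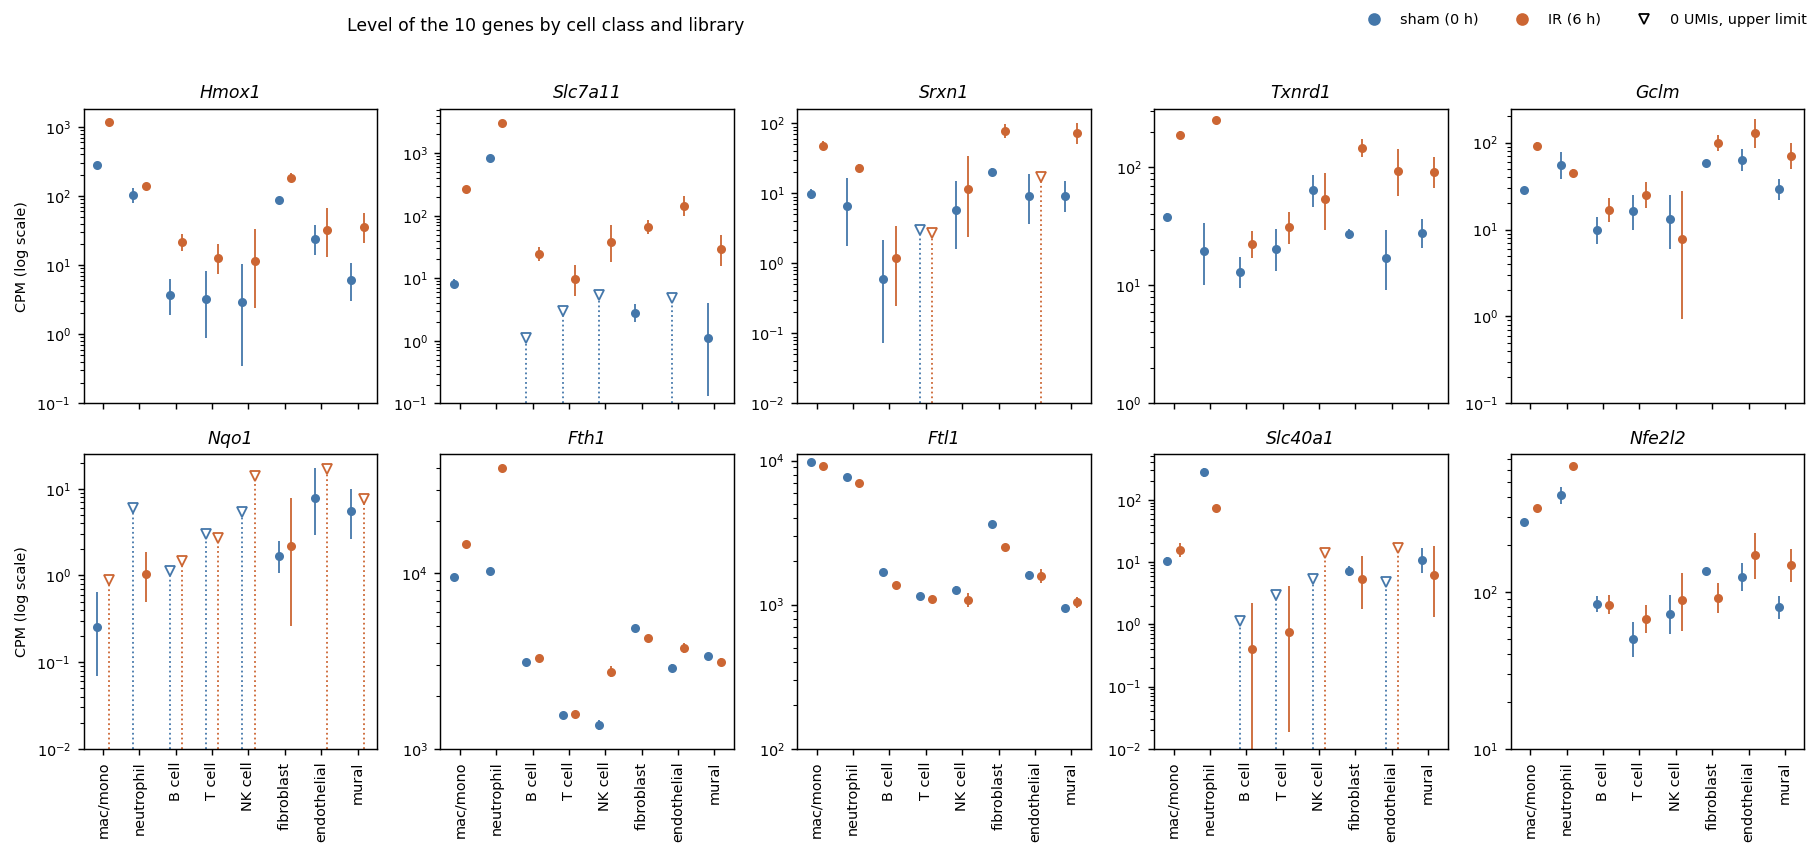
Level of each of the 10 genes in 8 cell classes, in CPM on a log axis, in the sham (blue) and IR (orange) library. Bars are 95% exact Poisson intervals and open triangles mark the upper limit where no UMI was counted. Hmox1 is highest in macrophage/monocyte cells (278 and 1183 CPM) and Slc7a11 and Fth1 are highest in IR neutrophils (3021 and 40005 CPM).

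The higher Hmox1 level sat in few cells. Per 10000 UMIs of a cell, the median macrophage/monocyte cell held 1.10 Hmox1 UMIs in sham and 1.42 in IR, whereas the 90th percentile was 7.61 and 20.9 and the highest cell 74.3 and 312. The tenth of cells with the most Hmox1 UMIs held 51.5% of the class's Hmox1 UMIs in sham and 78.1% in IR, while the same cells held 11.5% and 12.7% of all UMIs. At an equal depth of 1000 UMIs per cell, an Hmox1 UMI was found in 20.3% of sham and 31.3% of IR macrophage/monocyte cells (50.2% and 57.9% unthinned). In B cells, used as the reference for free RNA, the shares were 0.630% and 1.45%. Whether B cells lack Hmox1 mRNA of their own was not tested. Thinning left out 67 sham and 27 IR macrophage/monocyte cells and 16 and 31 B cells.

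Hmox1 in B cells, 3.64 CPM (12 UMIs) in sham and 21.3 CPM (54 UMIs) in IR, was 5.87-fold higher, and it was read against free RNA. Per 1000 UMIs of the macrophage genes C1qa, C1qb and C1qc, B cells held 27.6 Hmox1 UMIs in sham (14.2 to 48.8), T cells 31.7 (8.52 to 83.3) and macrophage/monocyte cells 13.3 (12.9 to 13.7). In IR the values were 278 (202 to 378), 262 (144 to 451) and 151 (147 to 156). Fibroblasts held 2982 and neutrophils 2315 by the same measure in IR. In fibroblasts and neutrophils Hmox1 was thus far more abundant, relative to macrophage RNA, than in macrophages. The B cell interval also lay above the macrophage value in both libraries, and the T cell interval overlapped it in both. The part of free RNA in the B cell levels was not tested.

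Slc7a11 mRNA was highest in neutrophils. Slc7a11, which encodes the xCT subunit that brings in cystine for glutathione synthesis, stood in neutrophils at 852 CPM in sham (781 to 929; 524 UMIs) and 3021 CPM in IR (2987 to 3056; 29400 UMIs), 3.54-fold higher (log2 ratio 1.83, 1.70 to 1.95). The median gene of the 6003 tested in neutrophils had a log2 ratio of −0.33, and relative to that shift the Slc7a11 ratio was 2.15. The median neutrophil held 7.22 Slc7a11 UMIs per 10000 in sham and 27.1 in IR, so here the median cell differed as the class did. At 1000 UMIs per cell, 55.2% of sham and 87.5% of IR neutrophils had a Slc7a11 UMI (72.5% and 96.8% unthinned), against 0% and 1.45% of B cells. The median depth of neutrophils was 1677.5 UMIs in sham and 3938 in IR, and thinning left out 12 and 104 of them.

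Outside neutrophils Slc7a11 was low in sham and higher in IR. Macrophage/monocyte cells held 8.24 CPM (131 UMIs) in sham and 272 CPM (1143 UMIs) in IR, 33.0-fold higher. Fibroblasts held 2.81 CPM (40 UMIs) and 66.0 CPM (61 UMIs), 23.5-fold higher, and mural cells 1.10 CPM (2 UMIs) and 29.3 CPM (14 UMIs), a ratio of 26.7 with a log2 interval of 2.62 to 7.92. In B cells no UMI was counted in sham and 62 in IR (24.5 CPM), 26.9-fold higher with the count of 0 set to 3 UMIs. The exact lower limit of that log2 ratio was 4.41. These ratios were smaller without the limit on genes per cell. Sham and IR levels were then 15.0 and 300 CPM in macrophage/monocyte cells and 3.91 and 54.0 CPM in fibroblasts. They were 8.88 and 43.4 CPM in mural cells and 3.82 and 22.4 CPM in B cells, whose sham cells above the limit held 19 UMIs. Of the 31 UMIs in IR endothelial cells, 30 came from 1 cell.

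Because neutrophils were many and rich in Slc7a11 in IR, the other classes were set against neutrophil RNA. Per 1000 UMIs of the neutrophil genes S100a8 and S100a9, IR neutrophils held 25.1 Slc7a11 UMIs (24.8 to 25.4). B cells held 23.1 (17.7 to 29.8) and T cells 16.4 (8.67 to 28.1), ratios that overlap that of neutrophils. Macrophage/monocyte cells held 324 (303 to 346), fibroblasts 86.3 (65.3 to 112), NK cells 61.7, mural cells 49.6 and endothelial cells 161. B and T cells thus held Slc7a11 and S100a8 with S100a9 in the proportion found in neutrophils, and macrophage/monocyte cells and fibroblasts held more Slc7a11 per neutrophil UMI. No profile of free RNA was measured, and its part in these levels was not tested. At 1000 UMIs per cell, 0.832% of sham and 15.6% of IR macrophage/monocyte cells had a Slc7a11 UMI.

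**Figure D2:**
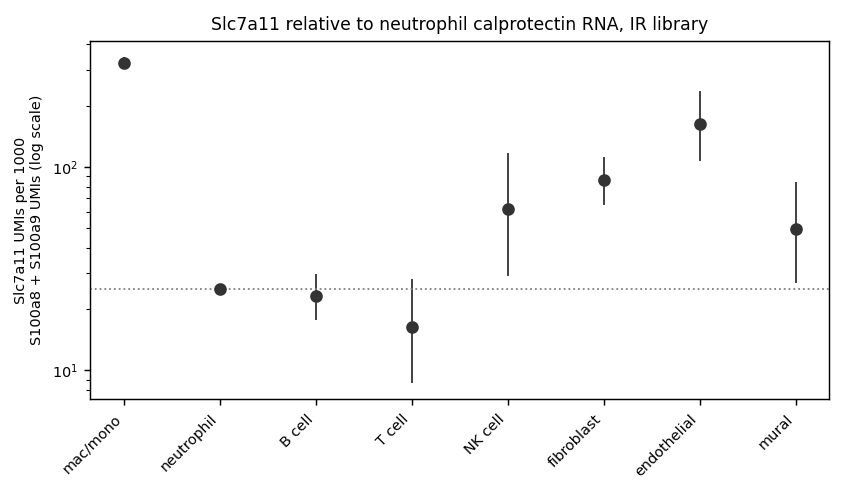
Slc7a11 UMIs per 1000 UMIs of S100a8 and S100a9 in 8 classes of the IR library, on a log axis with 95% intervals. The dotted line marks the neutrophil value of 25.1, on which the B and T cell intervals lie, while macrophage/monocyte cells are at 324 and fibroblasts at 86.3.

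The enzymes that use thiols followed. Txnrd1, thioredoxin reductase 1, which keeps thioredoxin reduced, stood at 37.9 and 188 CPM in sham and IR macrophage/monocyte cells, 4.96-fold higher. It was 27.1 and 146 CPM in fibroblasts (5.39-fold), 27.9 and 92.0 CPM in mural cells (3.29-fold) and 19.5 CPM (12 UMIs) and 255 CPM (2477 UMIs) in neutrophils, where the ratio of 13 had a log2 interval of 2.90 to 4.66. In sham the highest level was in NK cells at 64.0 CPM, and in IR it was in neutrophils. In B cells the levels were 13 and 22.5 CPM, a log2 ratio of 0.79.

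Srxn1, sulfiredoxin, which repairs overoxidised peroxiredoxins, was 9.82 CPM in sham and 48.3 CPM in IR macrophage/monocyte cells (4.92-fold higher). Fibroblasts held 20.2 and 78.0 CPM (3.85-fold) and mural cells 9.31 and 73.2 CPM (7.86-fold), the largest Srxn1 ratio among the classes counted, on 17 and 35 UMIs. Without the limit on genes per cell Srxn1 was 22.2 and 44.4 CPM in fibroblasts and 9.86 and 44.3 CPM in mural cells. In neutrophils it was 6.51 CPM (4 UMIs) in sham and 22.9 CPM in IR, with a log2 interval of 0.44 to 3.70. Fibroblasts and mural cells thus held more Srxn1 in IR than neutrophils did, the reverse of Slc7a11.

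Gclm, the regulatory subunit of the enzyme that starts glutathione synthesis, was 28.5 and 91.4 CPM in macrophage/monocyte cells (3.21-fold higher) and 29 and 71.1 CPM in mural cells (2.45-fold). In the sham library 42 of its 453 macrophage/monocyte UMIs came from 1 cell. In fibroblasts it was 57.8 and 99.6 CPM, 1.72-fold higher and under the 2-fold rule used below. In neutrophils it was 55.3 CPM in sham and 44.9 CPM in IR with overlapping intervals, so that a higher level in IR neutrophils, seen for Slc7a11 and Txnrd1, was not seen for Gclm.

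Nqo1, a quinone reductase used in many tissues as a readout of NRF2, was barely detected. All filtered cells held 49 UMIs in sham and 17 in IR. The highest sham levels were 7.91 CPM in endothelial cells (6 UMIs) and 5.48 CPM in mural cells (10 UMIs), and neither class had a UMI in IR. Macrophage/monocyte cells had 4 UMIs in sham and 0 in IR, which allows up to 0.714 CPM at 3 UMIs, so a difference between libraries was not detectable at this depth.

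**Figure D3:**
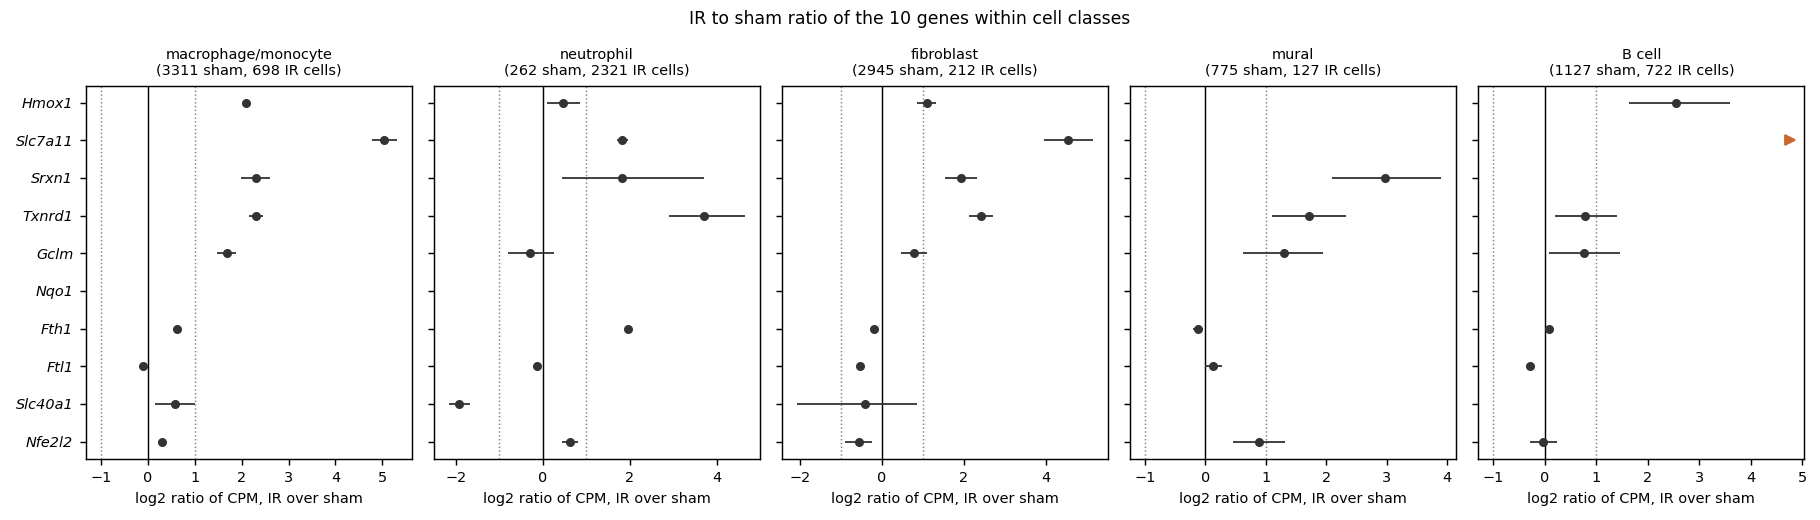
Log2 ratio of IR over sham CPM for each gene in 5 cell classes, with 95% intervals and dotted lines at 2-fold in each direction. Genes with under 50 UMIs over both libraries in a class are left out, and the triangle is the lower bound for Slc7a11 in B cells, which had no sham UMI. Slc7a11 has the highest ratio in macrophage/monocyte cells (5.04) and fibroblasts (4.55), and Slc40a1 in neutrophils (−1.92) is the lowest ratio drawn.

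Ferritin mRNA split by chain and by cell. Fth1, the heavy chain with ferroxidase activity, stood in neutrophils at 10257 CPM in sham (10005 to 10513; 6306 UMIs) and 40005 CPM in IR (39879 to 40131; 389270 UMIs), 3.90-fold higher (log2 ratio 1.96, or 2.29 relative to the median gene). It thereby made up 1.03% of all neutrophil UMIs in sham and 4.00% in IR. The whole range of cells was higher: the median neutrophil held 87.2 Fth1 UMIs per 10000 in sham and 331 in IR, and the 90th percentile was 199 and 761. In macrophage/monocyte cells the class level was 9583 and 14677 CPM (1.53-fold), but the median cell held 87.2 and 84.4 UMIs per 10000 and only the upper part was higher, with a 90th percentile of 154 and 284. With cells limited to at most 1 UMI of other classes' markers, 355 sham and 92 IR cells, the Fth1 log2 ratio in macrophage/monocyte cells was −0.045 in place of 0.61.

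Ftl1, the light chain, had no such difference. It was 9752 and 9100 CPM in macrophage/monocyte cells, 7633 and 6941 CPM in neutrophils (log2 ratio −0.14, and 0.19 relative to the median gene) and 3629 and 2516 CPM in fibroblasts. The number of Fth1 UMIs per Ftl1 UMI was therefore 1.34 in sham and 5.76 in IR neutrophils, 0.983 and 1.61 in macrophage/monocyte cells, 1.07 and 2.56 in NK cells and 1.86 and 2.41 in B cells. It was 1.34 and 1.69 in fibroblasts and 1.80 and 2.38 in endothelial cells. Among the 62 IR endothelial cells, 1 cell held 294 of the 808 Fth1 UMIs and 1 cell held 97 of the 340 Ftl1 UMIs. Only in mural cells among the 8 classes was the number of Fth1 UMIs per Ftl1 UMI lower in IR, at 3.57 and 3.0. The T cell values of 1.35 and 1.45 overlapped. The mural direction turned without the limit on genes per cell. Mural cells then held 3601 and 4431 CPM of Fth1 and 1025 and 913 CPM of Ftl1 in sham and IR. In fibroblasts and mural cells Fth1 itself was slightly lower in IR (log2 ratios −0.19 and −0.12), and without the limit on genes per cell these became 0.22 and 0.30. The feature table held 0 of the 4 annotated ferritin pseudogenes, so reads from them could not be counted apart.

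**Figure D4:**
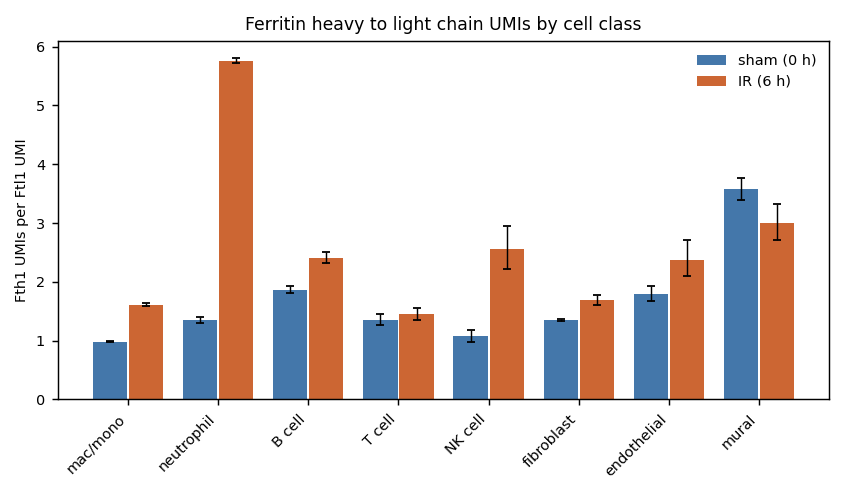
Fth1 UMIs per Ftl1 UMI in 8 cell classes of the sham (blue) and IR (orange) library, with 95% intervals. The ratio was 1.34 in sham and 5.76 in IR neutrophils, and 3.57 and 3.0 in mural cells. Without the limit on genes per cell, which is not drawn, the mural ratio was higher in IR.

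The mRNA of the iron exporter had its highest level in sham neutrophils. Slc40a1, ferroportin, stood at 275 CPM in sham neutrophils (235 to 320; 169 UMIs) and 72.9 CPM in IR neutrophils (67.6 to 78.4; 709 UMIs), 3.77-fold lower (log2 ratio −1.92, or −1.59 relative to the median gene). Every other class was far below in both libraries: macrophage/monocyte cells held 10.4 and 15.7 CPM (log2 ratio 0.59, 0.15 to 1.01), fibroblasts 7.24 and 5.41 CPM, and B, T, NK and endothelial cells 0 or 1 UMI each. At 1000 UMIs per cell, 29.2% of sham and 7.58% of IR neutrophils had a Slc40a1 UMI (41.6% and 20.6% unthinned) and no B cell did. Over all filtered cells the level was higher in IR, 11.9 and 37.6 CPM, the opposite of its direction within neutrophils, with 262 neutrophils among the sham and 2321 among the IR cells.

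Nfe2l2, encoding NRF2 itself, differed less than most of the other members. It was 277 and 341 CPM in macrophage/monocyte cells (1.23-fold higher), 412 and 637 CPM in neutrophils (1.55-fold) and 79.9 and 148 CPM in mural cells (1.86-fold). In fibroblasts it was 135 and 92.0 CPM, a log2 ratio of −0.56, and in B cells 84.3 and 83.0 CPM. Without the limit on genes per cell fibroblasts held 144 and 122 CPM of Nfe2l2. In cells with at most 1 UMI of other classes' markers the Nfe2l2 log2 ratio turned to −0.016 in macrophage/monocyte cells and −0.069 in mural cells. That setting left 78 sham and 15 IR mural cells. The Nfe2l2 level was highest in neutrophils in both libraries. NRF2 is controlled mainly as a protein, which these counts do not measure.

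Counted by a rule of size, 2-fold with at least 50 UMIs over both libraries in a class, 5 of 9 members were higher in IR macrophage/monocyte cells (Hmox1, Slc7a11, Srxn1, Txnrd1 and Gclm), where 9.00% of the 9814 genes tested were, and 0 were lower, where 9.14% were. In neutrophils 4 of 9 were higher (Slc7a11, Srxn1, Txnrd1 and Fth1; 11.3% of all genes) and Slc40a1 alone was lower (22.3%). Relative to the median gene of the class, 991 neutrophil genes were higher and 719 lower, in place of 676 and 1339. In fibroblasts 4 of 9 were higher (Hmox1, Slc7a11, Srxn1 and Txnrd1; 12.0%) and 0 lower (17.8%). In mural cells 3 of 6 were higher (Srxn1, Txnrd1 and Gclm; 6.02%) and 0 lower (8.90%), and in B cells 2 of 7 were higher (Hmox1 and Slc7a11; 3.55%) and 0 lower (3.50%). Without the limit on genes per cell 5 members were higher in fibroblasts. Sham and IR levels were then 3.91 and 54.0 CPM of Slc7a11 and 22.2 and 44.4 CPM of Srxn1. They were 28.5 and 114 CPM of Txnrd1 and 61.0 and 122 CPM of Gclm. These members were chosen on this contrast, so nothing is read from the counts.

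Over the members past the UMI minimum, the median log2 ratio was 1.68 in macrophage/monocyte cells, 0.63 in neutrophils and 0.79 in fibroblasts (9 members each). It was 1.09 in mural cells (6 members) and 0.76 in B cells (7 members). The median over all genes tested in the same classes was 0.03, −0.33, −0.11, −0.01 and 0.08. Slc7a11 in B cells passed the minimum with 0 sham and 62 IR UMIs. As the members were chosen on this contrast, nothing is read from these medians either. The share of mitochondrial UMIs was higher in IR in each of these classes, at 3.1% and 6.39% in macrophage/monocyte cells, 2.96% and 4.12% in neutrophils and 3.58% and 7.88% in fibroblasts, and its part in the ratios was not tested.

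The rest of the pathway was taken from 5 lists of 82 genes. Among 71 tested in macrophage/monocyte cells, 15 were higher in IR and 6 lower by the same rule, beside 9.00% higher and 9.14% lower over all genes tested in the class, so the count of lower genes is near that of any genes. Glutathione and thioredoxin enzymes gave 6 of 19 higher and 0 lower, with a median log2 ratio of 0.27: Gsr, which regenerates glutathione, was 56.5 and 329 CPM, Glrx (glutaredoxin) 41.0 and 194 CPM, and Gclc, the catalytic partner of Gclm, 18.2 and 77.8 CPM. NRF2 regulators gave 3 of 9 higher: the repressor Bach1 was 120 and 261 CPM, the small MAF gene Maff 19.9 and 76.2 CPM and Cul3, part of the KEAP1 ubiquitin ligase, 39.8 and 81.2 CPM. NADPH and detoxification enzymes gave 1 of 12 higher and 2 lower, with the exporter Abcc1 at 24.1 and 59.5 CPM, the epoxide hydrolase Ephx1 at 76.8 and 21.4 CPM and the carbonyl reductase Cbr1 at 19.4 and 8.09 CPM.

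Heme genes gave 3 of 16 higher and 3 lower in the same cells, beside the same 9.00% and 9.14% over all genes: Alas1, which starts heme synthesis, was 23.7 and 55.7 CPM and the hemoglobin scavenger Hp 73.2 and 282 CPM, while Hmox2, the constitutive heme oxygenase, was lower at 190.2 and 72.8 CPM, opposite to Hmox1. Iron genes gave 2 of 15 higher and 1 lower, about as many as these shares give: the iron and zinc importer Slc39a14 was 6.67 and 36.7 CPM, the siderophore binder Lcn2 3.40 and 76.6 CPM and transferrin (Trf) 955 and 415 CPM. Hp and Lcn2 were abundant in IR neutrophils (1666 and 3320 CPM), and what free neutrophil RNA adds to them in macrophage/monocyte cells was not tested. Abcc1, Gsr, Hp and Lcn2 were also past 2-fold higher in IR B cells. The part of free RNA in Abcc1 and Gsr was not tested either.

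Elsewhere the lists gave 7 of 51 higher and 16 lower in neutrophils (11.3% and 22.3% over all genes), 15 of 72 and 18 in fibroblasts (12.0% and 17.8%), 3 of 43 and 1 in mural cells (6.02% and 8.90%) and 4 of 52 and 2 in B cells (3.55% and 3.50%). In neutrophils the 4 pentose phosphate enzymes of the lists, G6pdx, Pgd, Taldo1 and Tkt, were all lower in a class where 22.3% of all genes were, as was Keap1 at 17.9 and 4.62 CPM, while Maff was 19.5 and 202 CPM. In fibroblasts Maff (41.4 and 178 CPM), Gclc (31.8 and 85.5 CPM) and Gsr (24.1 and 56.3 CPM) were higher, as in macrophage/monocyte cells. Maff was past 2-fold higher in macrophage/monocyte cells, neutrophils, fibroblasts and mural cells. Keap1, Maff, Gclc, Gsr and the pentose phosphate enzymes were named here after their values in these classes were seen.

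Within macrophage/monocyte cells the members did not share 1 place. Cells were placed in 7 states by marker UMIs, 2376 of 3311 in sham (71.8%) and 477 of 698 in IR (68.3%), and states with under 20 cells in a library were not compared. States are called by the markers that placed their cells. Lpl/Gdf15 cells had the highest Hmox1 of the states compared in IR, 494 CPM in 62 sham cells and 2053 CPM in 166 IR cells (4.15-fold higher). Lyve1/Folr2/Timd4 cells held 417 CPM in 687 sham cells and 995 CPM in 45 IR cells (2.39-fold), or 423 CPM and 1598 CPM (192 IR cells) without the limit on genes per cell. Timd4 was not among the 10 leading genes of this state in IR. MHC class II cells held 229 CPM in 868 and 468 CPM in 27 (2.05-fold). Hmox1 was higher in IR in each state compared. Interferon cells held 254 CPM in sham and 3476 CPM (401 UMIs) in 17 IR cells, too few to compare.

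Slc7a11 peaked in another state. Thbs1/Arg1 cells held 808 CPM in 120 IR cells (746 to 873), with 11 such cells in sham, whereas Lpl/Gdf15 cells held 45.9 CPM in sham and 96.9 CPM in IR. Cells of the Ly6c2 gate held 18.5 CPM in 225 sham cells and 298 CPM in 90 IR cells (16.2-fold). Those 90 IR cells were led by Ear2, Plac8, Gngt2, Itgal and Treml4 rather than by Ly6c2, so they are called by their gate only. Their Hmox1 ratio was 6.02 (102 and 611 CPM) but 85.1 and 216 CPM without the limit on genes per cell. Txnrd1 in the same gate was 23.1 and 229 CPM, and in Lpl/Gdf15 cells 169 and 177 CPM.

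**Figure D5:**
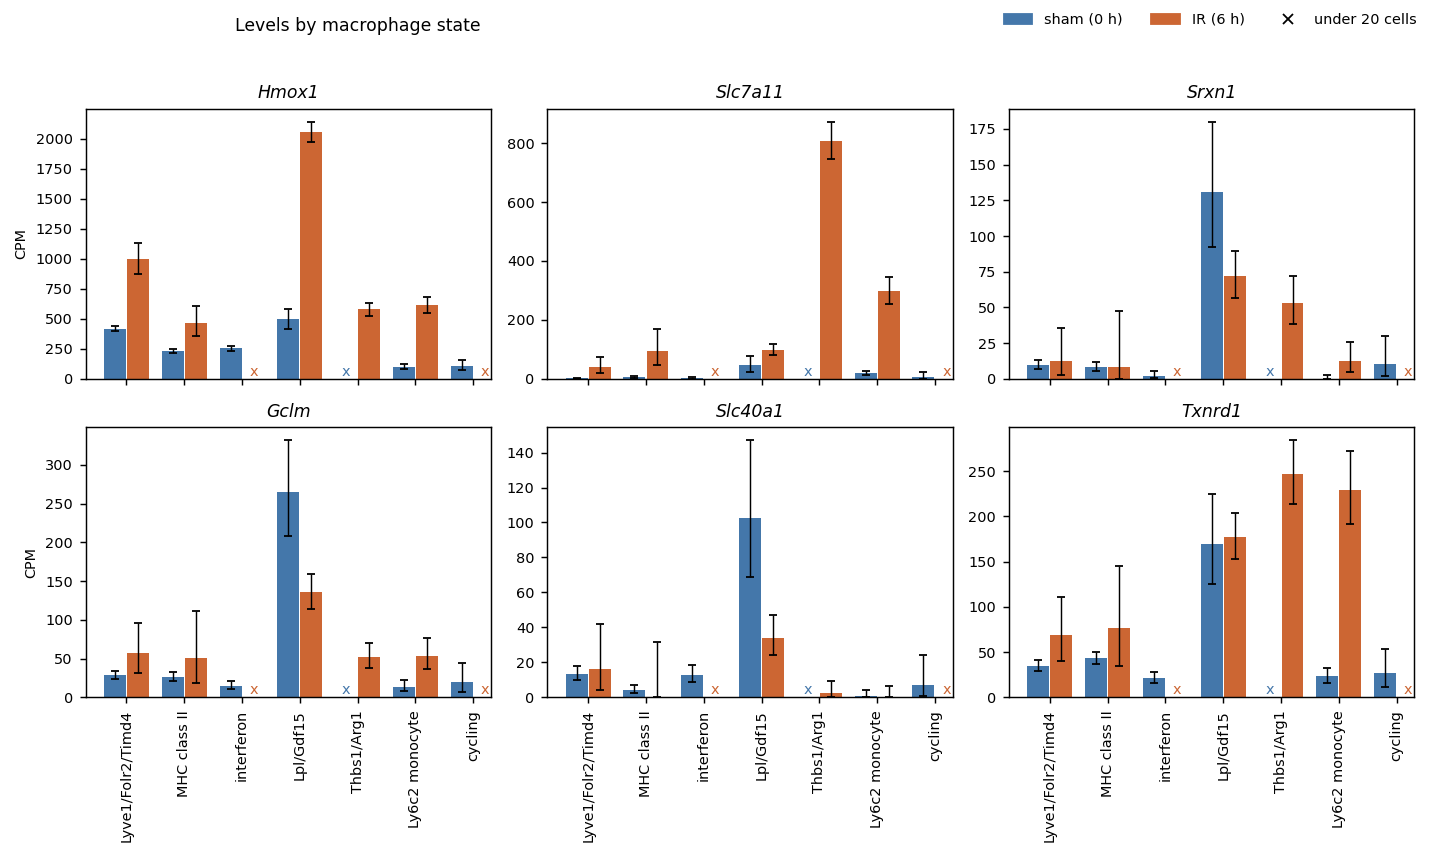
Level of 6 genes in 7 macrophage/monocyte states of the sham (blue) and IR (orange) library, in CPM with 95% intervals, and x where a state had under 20 cells. Hmox1 is highest in IR Lpl/Gdf15 cells (2053 CPM) and Slc7a11 in IR Thbs1/Arg1 cells (808 CPM). The sham Lpl/Gdf15 bars of Gclm (265 CPM) and Slc40a1 (102 CPM) rest on 1 cell that held 42 of 75 and 22 of 29 UMIs.

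The 62 sham Lpl/Gdf15 cells, 1.78% of the class's UMIs, were set against the other 3249 sham macrophage/monocyte cells. Srxn1 was 131 and 7.62 CPM (17.1-fold higher), Txnrd1 169 and 35.6 CPM (4.77-fold) and Slc7a11 45.9 and 7.56 CPM (6.07-fold). Hmox1 at 494 and 274 CPM, Ftl1 at 16944 and 9621 CPM, Fth1 at 14652 and 9491 CPM and Nfe2l2 at 392 and 275 CPM differed less (1.80-fold, 1.76-fold, 1.54-fold and 1.43-fold). Gclm was 265 and 24.2 CPM (10.9-fold) and Slc40a1 102 and 8.78 CPM (11.7-fold), but 1 cell held 42 of the state's 75 Gclm and 22 of its 29 Slc40a1 UMIs. Without that cell these ratios were 4.97 and 2.91, and that of Srxn1 was 14.8. Gclm, Srxn1 and Slc40a1 were among the 10 leading genes of the state, behind Gdf15, so they describe it and do not test it.

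In IR Lpl/Gdf15 cells, Hmox1 was 4.15-fold higher than in sham, and Srxn1 was lower, at 131 and 72.0 CPM (log2 ratio −0.86, −1.44 to −0.25, and −0.65 without that cell). The Gclm log2 ratio of −0.97 became 0.17 without that cell (−0.38 to 0.76), and the Slc40a1 ratio of −1.58 became 0.42 (−0.76 to 1.83), so neither direction holds apart from it. In IR the state held 25.8% of all UMIs of macrophage/monocyte cells. It held 44.8% of their Hmox1, 56.1% of their Slc40a1 and 9.19% of their Slc7a11 UMIs. Its IR Slc40a1 level of 34.1 CPM (24 to 47.1) overlapped that of Lyve1/Folr2/Timd4 cells, 16.3 CPM on 4 UMIs (4.45 to 41.8), and without the limit on genes per cell the levels were 42.7 and 35.1 CPM.

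Genes with the pattern most like a member were taken over the 16 points of 8 classes in 2 libraries, by Pearson's r of log2(CPM + 10) among 9876 genes. The points share libraries and neutrophil or macrophage RNA, so r is a description. Nearest to Hmox1 were Tgfbi (0.935), Cxcl10 (0.896) and Gm17056 (0.894). Nearest to Slc7a11 were Clec4d (0.980), which is one of the markers used to place neutrophils, Il1rn (0.977) and Arg2 (0.972). Nearest to Slc40a1 were Gm28192 (0.977), Sfxn5 (0.973) and Msrb1 (0.970).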

How the data were processed

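UMI counts per gene and cell were used as the authors deposited them, as 1 matrix per group made with Cell Ranger (matrix header 3.1.0) against mm10, with replicates already joined. Barcodes with 200 to 2500 genes and at most 30% mitochondrial UMIs were kept, with genes in at least 5 cells (16282). A cell joined a class when its score over 120 markers found of 124 (13 classes) was 1.5 times the next best, with at least 2 distinct markers and 3 marker UMIs, which placed 95.7% of sham and 93.2% of IR cells. The 8 classes with at least 50 cells per library were described. Of the cells placed, 278 sham and 242 IR cells were under 2 times the next score. States of macrophage/monocyte cells used 42 markers in 7 lists and a gap of 0.5 SD, with 802 sham and 164 IR cells near that border. These thresholds were set after the data were seen. UMIs were summed per class and library and divided by the class total, per 1000000 (CPM). Intervals (95%) were exact Poisson for levels, exact conditional binomial for ratios and Clopper-Pearson for shares, and reads without replicate libraries allow no p-value. For a ratio, 3 UMIs stood in for a count of 0. Depth was 58653308 UMIs in sham and 75033226 in IR. A ratio counted as past the rule at 2-fold with at least 50 UMIs over both libraries. The gene set and lists were chosen with earlier results of these data known. Named genes were all 10 members, in each of the 5 lists the 3 largest ratios in macrophage/monocyte cells with at least 100 UMIs, and the 3 genes most correlated with Hmox1, Slc7a11 and Slc40a1 among genes of at least 20 CPM in 1 point or more. Other filters, gates and scalings were tried as alternatives. Python 3.11.15, numpy 2.4.6, scipy 1.17.1, pandas 2.3.3 and matplotlib 3.10.9 were used.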

Additional observations from a re-analysis of the deposited data

Results flagged for a closer look

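For 3 genes the log2 ratio of IR over sham had opposite signs in 2 classes, with each interval on its own side of 0. The differences between the classes were not tested, because each group is 1 library. Fth1 was 1.96 in neutrophils and −0.19 in fibroblasts, 2.16 apart, Slc40a1 was 0.59 in macrophage/monocyte cells and −1.92 in neutrophils, 2.50 apart, and Nfe2l2 was 0.89 in mural cells and −0.56 in fibroblasts, 1.45 apart. The opposite signs were lost for Fth1 without the limit on genes per cell (0.22 in fibroblasts) and in cells with at most 1 UMI of other markers (0.014), and for Nfe2l2 in the latter (−0.069 in mural cells). The latter setting left 78 sham and 15 IR mural cells.

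Barcodes with cardiomyocyte or erythroid markers were too few for the comparisons but held members above the sham level. In cardiomyocyte barcodes (38 sham and 46 IR) the IR levels were 641 CPM of Hmox1 (64.0 in sham), 182 CPM of Slc7a11 (0 UMIs in sham), 142 CPM of Txnrd1 (0 UMIs in sham) and 15526 CPM of Fth1 (6001 in sham). All 113 Hmox1 UMIs there came from 5 cells. In erythroid barcodes (30 and 22) the IR levels were 712 CPM of Slc7a11 (52.1 in sham), 21113 CPM of Fth1 (3323), 4252 CPM of Ftl1 (2403) and 453 CPM of Nfe2l2 (60.7). Beside these, the neutrophil genes S100a8 and S100a9 together stood higher in IR as well: S100a8 was 104 CPM in sham erythroid barcodes against 4770 CPM in those of IR, and S100a9 was 121 CPM against 10492 CPM. In cardiomyocyte barcodes S100a8 was 554 CPM against 1107 CPM, and S100a9 981 CPM against 1311 CPM. Their part in these levels was not tested.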

How the results depend on the processing

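No paired analysis was possible because the cell barcodes do not show the sample, and for the same reason no replicate could be left out. Of 280 values of 40 log2 ratios under 7 other settings, 190 lay within the counting interval of the main ratio. Another 78 lay outside it, toward or away from 0, and 12 turned in sign from a main interval that excluded 0. The cause was not tested in any of them. The Hmox1 ratio in macrophage/monocyte cells (2.09) was 2.15 without the limit on genes, 1.54 with classes set by most marker UMIs, 1.98 in cells with at most 1 UMI of other classes' markers, 2.17 without mitochondrial, ribosomal protein and hemoglobin genes and 1.97 as a mean over cells. In neutrophils Slc7a11 (1.83) was 1.54 as a mean over cells and 2.15 centred on the median gene, Slc40a1 (−1.92) was −1.59 centred, and Fth1 (1.96) was 2.05, 1.88, 1.70, 1.78 and 2.29 without the gene limit, by most marker UMIs, with at most 1 UMI of other markers, as a mean over cells and centred. Ratios that turned were, without the gene limit, Fth1 in fibroblasts (0.22) and mural cells (0.30), as a mean over cells Fth1 in mural cells (0.20), centred Ftl1 in neutrophils (0.19), and with at most 1 UMI of other markers Fth1 (−0.045), Ftl1 (0.15) and Nfe2l2 (−0.016) in macrophage/monocyte cells, Hmox1 in neutrophils (−0.22), Fth1 in fibroblasts (0.014), mural (0.77) and B cells (−0.015) and Nfe2l2 in mural cells (−0.069). In Lpl/Gdf15 macrophages, without the 1 sham cell with the most Gclm UMIs (chosen after seeing the data), the IR to sham log2 ratios of Gclm (−0.97) and Slc40a1 (−1.58) turned to 0.17 and 0.42. In cells with at most 1 UMI of other classes' markers, members past 2-fold higher in macrophage/monocyte cells fell from 5 to 2. All genes higher there fell from 883 to 306. That setting left 355 sham and 92 IR macrophage/monocyte cells and fewer genes past the UMI minimum. It left 78 sham and 15 IR mural cells. Neutrophil genes lower in IR were 1339, against 719 centred, 3109 with a minimum of 10 UMIs, 559 with 200 and 417 with at most 1 UMI of other markers. Members higher in mural cells were 3, against 5 with a minimum of 10 UMIs and 0 with 200 or with at most 1 UMI of other markers. In B cells they were 2, against 1 by most marker UMIs and 0 with a minimum of 200 UMIs or with at most 1 UMI of other markers. Of the pathway genes, neutrophils had 16 lower, against 25 with a minimum of 10 UMIs, 9 with 200 and 6 with at most 1 UMI of other markers, and 7 higher, against 12 centred and 4 with a minimum of 200 UMIs. Fibroblasts had 18 lower, against 10 without the gene limit, and macrophage/monocyte cells had 15 higher and 6 lower, against 7 and 2 with at most 1 UMI of other markers.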

Other observations

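Neutrophils were split, after the data were seen, by 20 UMIs of the maturation genes Retnlg and Mmp8 per 10000, into 171 sham and 1566 IR cells above and 91 and 755 below. In IR the cells below held more Fth1 (51441 against 35352 CPM), Slc7a11 (3700 against 2745 CPM) and Hmox1 (232 against 104 CPM) and less Slc40a1 (44.1 against 84.6 CPM). In sham the order was the same for Fth1 (11094 against 9931 CPM) and Slc7a11 (935 against 820 CPM), with overlapping intervals for Slc7a11, while Slc40a1 (337 against 251 CPM) and Hmox1 (81.3 against 111 CPM, 14 and 49 UMIs) had overlapping intervals and no order. Slc40a1 was lower in IR and Slc7a11 and Fth1 higher in IR on both sides of the split.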
